A study of Mus musculus with 44 samples.

Results

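Tetraspanins are small membrane proteins that cross the membrane several times and gather other surface proteins into microdomains. The set described here is 9 tetraspanin genes, grouped by name as tetraspanins of B cells: Cd37, Cd53, Cd81, Cd9, Cd82, Cd63, Cd151, Tspan13 and Tspan31. They were chosen by name, with earlier results of these arrays known, so their calls and p-values below are a description and not independent evidence about them. Their probe sets were chosen by annotation: every probe set of the Affymetrix Mouse430_2 array named for exactly 1 gene symbol among the 9. That gave 19 of 45101 probe sets, for 8 of the 9 genes. Cd63 was not analysed here. Of the 19, 18 had a group mean above the filter on dim probe sets and were among the 25200 probe sets tested.

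Tetraspanins work by binding partners. CD81 is found on many cell types, while CD37 and CD53 are found mainly on leukocytes. CD9 marks marginal zone B cells and antibody-secreting cells in the mouse, and CD82, CD151 and CD9 bind integrins and shape adhesion. Expression of these genes shifts when a B cell is activated and begins to differentiate, and TCDD, a lasting ligand of the aryl hydrocarbon receptor (AhR), is known to hinder that differentiation.

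The cells were CH12.LX, a mouse B lymphoma line that can turn to antibody secretion, so all values come from 1 line in culture. Cells were plated at 100000 per ml, activated with bacterial lipopolysaccharide (LPS) and given TCDD at 10 nM or the solvent alone as vehicle, which was 0.01% dimethyl sulfoxide (DMSO). The 11 groups of 4 arrays were untreated cells (0 h) and, at each of 8, 12, 24, 36 and 48 h, a vehicle and a TCDD group. Both later series of groups had received LPS. Untreated cells were measured at 0 h alone, so LPS, vehicle and time in culture cannot be told apart when vehicle cells are set against them. The 4 replicates stand for 4 days of work, and replicate numbers are used below as day numbers. Levels are log2(signal + 16) after quantile normalization, a scale whose lowest value is 4 and whose fold changes understate those of dim probe sets. Signals of different probe sets cannot be ranked against each other.

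The arrays had median signals from 45.2 to 99.2 before normalization, and their number limits the precision. Technical measures set 4 arrays apart from the rest: untreated replicates 3 and 4, vehicle 12 h replicate 4 and vehicle 48 h replicate 2. The log2 ratio of 3' to 5' control signal reached 3.01 in untreated cells and 2.66 in vehicle cells at 48 h, against at most 1.51 in the other groups. B cell identity was checked on 7 markers with a probe set, and 7 of 7 lay above the filter, with a summed linear signal of 21705 to 26260 in untreated cells and 8377 to 12697 in vehicle cells from 8 to 48 h. The megakaryocyte and platelet markers, which matter because those cells are rich in CD9 and CD151, summed to 309 to 819 over all groups. Of these 6 markers, Itga2b, Gp1bb, Pf4 and Treml1 lay above the filter, and Gp9 and Ppbp lay below it. Itga2b was the brightest, with group means from 7.70 to 8.15. TCDD acted in the cells labelled with it: Cyp1a1, a drug-metabolizing enzyme induced through AhR, was higher by 4.51 to 6.01 (log2) at the 5 times, and 23 of 25 tests of 5 AhR targets were called higher. In such bulk samples, fewer cells of a type and less RNA per cell cannot be told apart.

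The promoters of 4 members are shown because the results turn on them: Cd37, Cd9 and Tspan13 had the largest falls under TCDD, and Cd82 was 1 of 3 genes higher at 12 h. Among those 3, Cd82 was picked after the motif search because its window held the most copies. They are RefSeq windows on build GRCm38.p6, from 250 bases before to 50 bases after the start site, written 5′ to 3′ on the gene's strand. Capitals mark the AhR core motif GCGTG or its reverse complement CACGC.
Cd37, chr7:45238790-45239089, minus strand: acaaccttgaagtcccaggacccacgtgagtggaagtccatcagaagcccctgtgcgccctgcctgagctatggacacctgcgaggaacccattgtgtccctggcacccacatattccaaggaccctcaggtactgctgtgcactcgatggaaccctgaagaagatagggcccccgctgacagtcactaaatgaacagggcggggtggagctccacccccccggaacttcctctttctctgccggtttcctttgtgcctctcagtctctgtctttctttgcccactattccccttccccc
Cd9, chr6:125494711-125495010, minus strand: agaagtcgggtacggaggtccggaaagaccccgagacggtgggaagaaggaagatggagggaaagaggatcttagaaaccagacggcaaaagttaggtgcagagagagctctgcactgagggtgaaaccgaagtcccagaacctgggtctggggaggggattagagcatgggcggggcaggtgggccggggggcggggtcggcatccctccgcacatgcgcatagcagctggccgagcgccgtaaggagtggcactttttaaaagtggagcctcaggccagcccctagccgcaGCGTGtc
Tspan13, chr12:36042429-36042728, minus strand: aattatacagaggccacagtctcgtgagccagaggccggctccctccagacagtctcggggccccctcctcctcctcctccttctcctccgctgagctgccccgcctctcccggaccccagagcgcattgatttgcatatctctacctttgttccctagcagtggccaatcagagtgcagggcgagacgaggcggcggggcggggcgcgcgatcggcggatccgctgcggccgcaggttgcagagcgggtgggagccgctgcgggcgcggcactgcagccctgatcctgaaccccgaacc
Cd82, the second of 4 windows, chr2:93462453-93462752, minus strand: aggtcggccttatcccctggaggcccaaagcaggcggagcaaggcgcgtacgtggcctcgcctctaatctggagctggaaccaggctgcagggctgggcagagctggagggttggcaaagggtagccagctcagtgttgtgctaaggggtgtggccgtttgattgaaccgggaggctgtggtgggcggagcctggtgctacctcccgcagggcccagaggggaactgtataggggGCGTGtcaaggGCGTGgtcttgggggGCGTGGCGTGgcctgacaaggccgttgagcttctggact

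The core was found in 5 of 13 promoter windows of the 9 genes, against 32.4% of 32851 windows of 300 bases in the table. Cd9 held 1 copy, which begins 44 bases into the transcript. Cd82 held 4 copies in the window shown, of which 2 abut each other, and 1 in its first window. Cd81 and Cd151 held 1 copy each. The windows of Cd37, Tspan13, Cd53 and Cd63 had none of these letters, and neither had that of Tspan31, which was also higher at 12 h. A match is a description of the sequence and was not tested as a binding site. Of the members' protein-coding neighbours in the same gene table, 2 are tetraspanins too: Tspan32 beside Cd81 and Tspan18 beside Cd82. Neither neighbour was called in a comparison of TCDD with vehicle.

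Under TCDD, in the fit without a term for the day, the members called at 8 and 12 h (Cd151, Cd82 and Tspan31) were higher and those called from 24 h on (Cd37, Cd81, Cd9 and Tspan13) were lower. With the day as a block that split did not hold: Cd37 was called lower at 12 h as well, Tspan31 higher at 24 h and Cd82 lower at 48 h (limma adjusted p = 0.0218, 0.00918 and 0.0161). At 8 h, 1 of 18 probe sets was higher and 0 were lower, against 1.74% and 0.786% of all probe sets tested. At 12 h, 4 were higher and 0 lower, against 3.79% and 2.05%. At 24 h, 0 were higher and 2 lower, against 3.19% and 1.55%. At 36 h, 0 were higher and 4 lower, against 2.26% and 1.28%. At 48 h, 0 were higher and 4 lower, against 3.13% and 2.88%. These are counts of probe sets, so a gene with several can count more than once. By gene, 1 was higher at 8 h and 3 at 12 h. At 24, 36 and 48 h, 2, 3 and 3 genes were lower. The median difference of the 18 went from 0.16 at 8 h and 0.16 at 12 h to -0.15 at 36 h and -0.15 at 48 h, while that of all probe sets stayed between -0.03 and 0. All calls are limma adjusted p-values under 0.05, taken over all 25200 probe sets within a comparison. At an unadjusted p under 0.05, limma gave 4 higher and 0 lower at 8 h, 6 and 1 at 12 h, 3 and 3 at 24 h, 0 and 6 at 36 h, and 0 and 5 at 48 h.

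**Figure D1:**
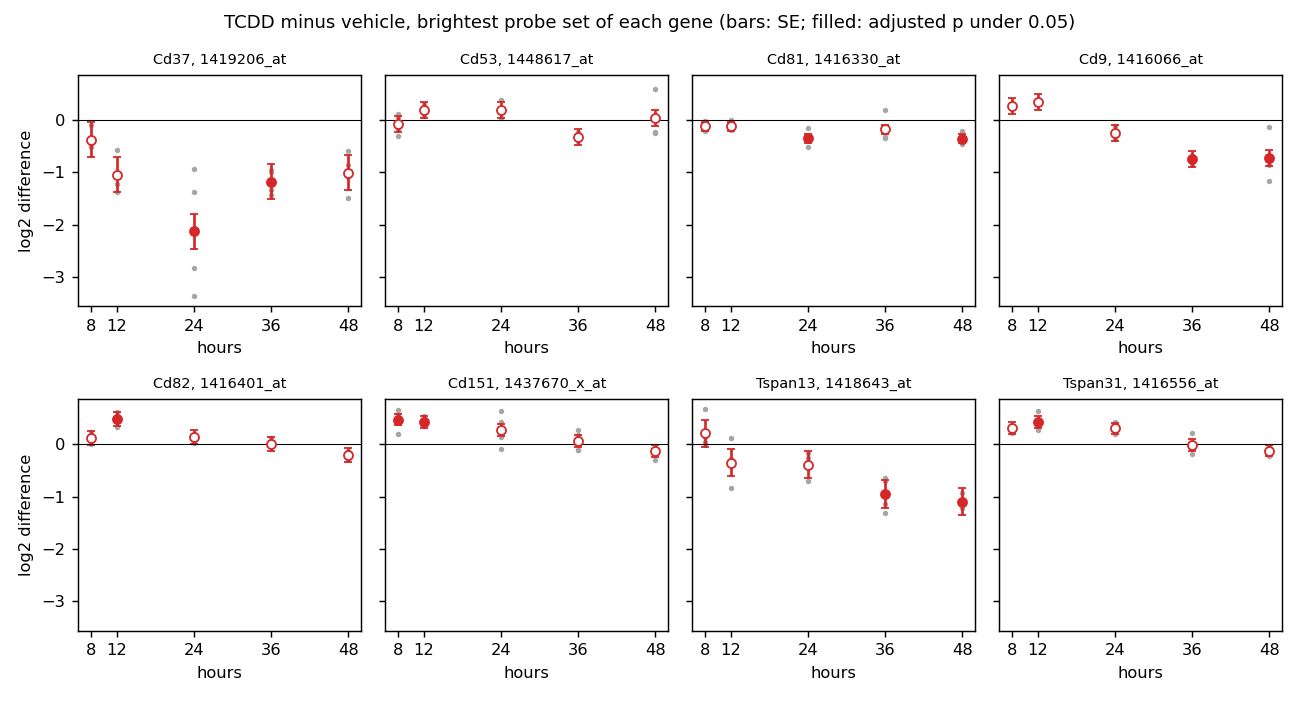
Difference between TCDD and vehicle cells (log2, y axis) at 5 times (hours, x axis) for the brightest probe set of 8 tetraspanin genes. Large circles are fitted differences with standard errors, filled where the adjusted p was under 0.05, and grey dots are the 4 same-day differences; Cd37 reaches -2.13 at 24 h, Tspan13 -1.10 at 48 h, and Cd53 has no filled circle.

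Cd37, a tetraspanin of mature B cells that is known for restraining IL-6 signalling and supporting survival signals, had the largest fall under TCDD. Its brighter probe set, 1419206_at, read 9.06, 9.65, 9.56 and 9.09 in vehicle cells at 24 h. In TCDD cells at 24 h it read 8.12, 8.27, 6.21 and 6.26. The 4 TCDD arrays all lay below the 4 vehicle arrays, and they were split among themselves, with replicates 3 and 4 far under replicates 1 and 2. The same-day differences were -0.94, -1.38, -3.36 and -2.84, and the fitted difference was -2.13 ± 0.34 (SE, n = 4 per group; limma adjusted p = 2.87e-05). At 36 h the TCDD arrays read 7.90, 7.96, 8.40 and 7.96 against 8.89, 9.30, 9.37 and 9.39 in vehicle cells, again without overlap, a difference of -1.18 ± 0.34 (limma adjusted p = 0.0394). Across the 5 times, Cd37 was lower under TCDD in 20 of 20 same-day pairs. The differences of -0.38 at 8 h, -1.04 at 12 h and -1.01 at 48 h were not called (limma adjusted p = 0.84, 0.0594 and 0.069). With the day as a block, those at 12 and 48 h were called (limma adjusted p = 0.0218 and 0.027). Without day 2, 3 or 4 the 36 h call was lost (limma adjusted p = 0.237, 0.162 and 0.198), whereas the 24 h call held without each of the 4 days. Fitted on the arrays compared alone, the 24 h call was lost (limma adjusted p = 0.0629). In that setting the unblocked TCDD calls given below for Cd81, Cd9, Cd82, Cd151, Tspan31 and Tspan13 1418643_at were lost too.

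The second Cd37 probe set, 1425736_at, did not show that fall at 24 h. It read 5.29, 6.66, 7.18 and 6.91 in vehicle cells at 24 h and 6.66, 6.57, 7.18 and 7.10 in TCDD cells, so the groups overlapped. Its difference at 24 h was 0.37 ± 0.38 (limma adjusted p = 0.771), and that value rests on 1 low array, vehicle replicate 1. The same-day differences were 1.37, -0.09, 0.01 and 0.19, and without day 1 the fitted value was 0.035. At 8, 12, 36 and 48 h its differences were -0.15, -0.59, -0.62 and -0.27, with that at 36 h lower on 4 of 4 days. The 12 h value rests mostly on 1 low array, TCDD replicate 1 at 4.94. Its same-day differences were -2.07, -0.08, -0.59 and 0.38. Over the 5 times the probe set was called 0 times and was lower in 14 of 20 same-day pairs. It is the dimmer of the pair, with group means from 6.41 to 7.80 against 7.21 to 10.38 for the first. The called falls of Cd37 under TCDD therefore rest on 1 of its 2 probe sets.

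**Figure D2:**
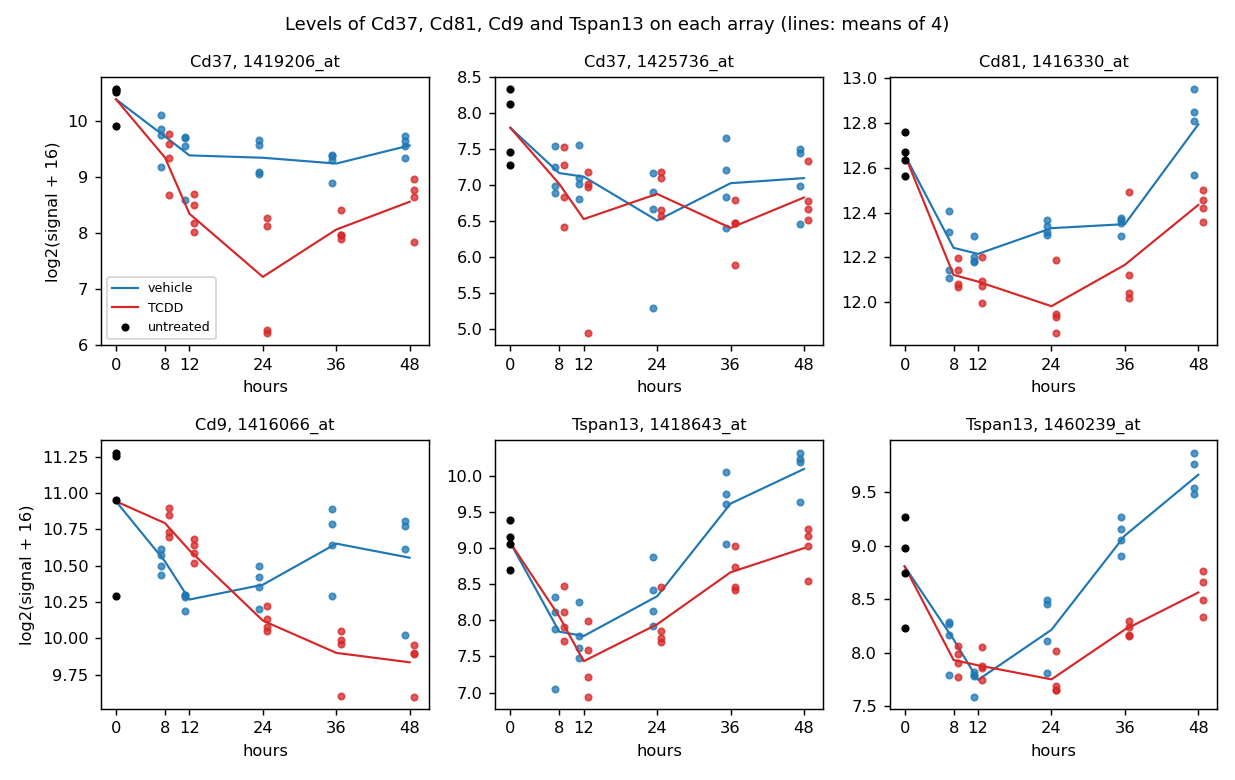
Levels, log2(signal + 16) on the y axis, of Cd37, Cd81, Cd9 and Tspan13 probe sets on each array against hours of culture (x axis). Points are arrays, 4 per group, lines join group means, black is untreated, blue vehicle and red TCDD; Cd37 1419206_at splits into 2 high and 2 low TCDD arrays at 24 h, and both Tspan13 probe sets climb less under TCDD.

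Cd81, a broadly expressed tetraspanin, has 1 probe set and a narrow range of group means, 11.98 to 12.79. In vehicle cells at 24 h it read 12.34, 12.30, 12.32 and 12.37, and in TCDD cells 12.19, 11.93, 11.94 and 11.86. The groups did not overlap, and TCDD cells were lower by a small amount, -0.35 ± 0.09 (SE, n = 4; limma adjusted p = 0.0112), a fold change of 1.27. At 48 h the TCDD arrays lay between 12.36 and 12.50 and the vehicle arrays between 12.57 and 12.95, a difference of -0.36 ± 0.09 (limma adjusted p = 0.0084). Cd81 was lower in 18 of 20 same-day pairs, and the differences at 8, 12 and 36 h, from -0.18 to -0.12, were not called. Each of days 2, 3 and 4, when left out, ended both calls (limma adjusted p from 0.0522 to 0.204).

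Cd9, a tetraspanin of marginal zone B cells and plasma cells that binds integrins, crossed over during the time course. At 8 h the TCDD arrays, from 10.70 to 10.89, all lay above the vehicle arrays, from 10.44 to 10.61. The same held at 12 h, with 10.52 to 10.68 above 10.19 to 10.30. Neither early difference, 0.26 ± 0.15 and 0.34 ± 0.15, was called (limma adjusted p = 0.609 and 0.231). At 36 h the order was turned: 9.96, 10.05, 9.60 and 9.99 in TCDD cells against 10.64, 10.89, 10.29 and 10.79 in vehicle cells. That difference was -0.75 ± 0.15 (SE, n = 4; limma adjusted p = 0.00205), and at 48 h it was -0.72 ± 0.15 (limma adjusted p = 0.00241). The test of whether the TCDD difference itself changed with time was called for Cd9 (limma F test, adjusted p = 0.000754). Vehicle 48 h replicate 2, the array with the high control ratio, had the lowest vehicle level, 10.03. Without day 4 the 36 h, 48 h and time tests were lost (limma adjusted p = 0.056, 0.0604 and 0.0675).

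Tspan13, a little studied member of the family, is represented by 2 probe sets whose TCDD differences lay close together from 24 h on. At 8 and 12 h their signs were opposite, without a call. The differences were 0.21 and -0.35 for 1418643_at and -0.19 and 0.14 for 1460239_at. In vehicle cells 1460239_at fell from 8.81 at 0 h to 7.75 at 12 h and then rose to 9.66 at 48 h. In TCDD cells it went from 7.88 at 12 h to 8.56 at 48 h. At 36 h its TCDD arrays read 8.24, 8.16, 8.17 and 8.30 and its vehicle arrays 9.27, 9.16, 8.90 and 9.06. At 48 h they read 8.50, 8.66, 8.33 and 8.77 against 9.76, 9.48, 9.54 and 9.87. There was no overlap at either time, and TCDD cells were lower by -0.88 ± 0.15 at 36 h and -1.10 ± 0.15 at 48 h (SE, n = 4; limma adjusted p = 0.000248 and 6.37e-06). The other probe set, 1418643_at, gave -0.95 ± 0.26 and -1.10 ± 0.26 (limma adjusted p = 0.0305 and 0.00668). At 24 h both were lower, by -0.46 and -0.39, without a call. With the day as a block 1460239_at was called at 24 h (limma adjusted p = 0.0114). The 36 and 48 h calls of 1460239_at held in every alternative run on that probe set. Those of 1418643_at did not: the 36 h call was lost without day 1, 2 or 4 (limma adjusted p = 0.0971, 0.328 and 0.11) and the 48 h call without day 2 (limma adjusted p = 0.136).

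The summed plasma cell markers were lower under TCDD at 36 and 48 h. At 24 h the sums overlapped, 16935 to 18295 in TCDD cells and 17878 to 20075 in vehicle cells, and 0 of 5 were called. At 36 h 2 of 5 were called lower. At 8 h 2 were called higher, and at 12 h 1 was called higher and 1 lower. The summed signal of the 5 markers (Prdm1, Sdc1, Jchain, Xbp1 and Irf4) was 23637 to 24942 in vehicle cells at 48 h and 18688 to 19730 in TCDD cells, without overlap. Of the 5, Sdc1 and Xbp1 were called lower at 48 h, by -1.06 and -0.39. Myeloid markers summed at 48 h to 1641 to 1737 in TCDD cells and 702 to 839 in vehicle cells. The sums were apart at each of the 5 times. Csf1r was the brightest, and Itgam and Lyz2 lay below the filter. Of the 5 tested, 2 were called higher and 1 lower at 48 h, with a median of -0.03. Csf1r read 10.10 against 8.34 and Adgre1 8.62 against 7.68, while Mpo read 4.98 against 6.49. Stromal and endothelial markers summed at 48 h to 2228 to 2985 in TCDD cells and 1386 to 1793 in vehicle cells. The sums were apart from 12 h on. Pecam1 was the brightest, at 11.09 against 10.25 at 48 h, and Col3a1 lay below the filter. Col1a1 and Kdr read lower at 48 h, 5.63 against 6.02 and 6.54 against 6.64, and the list median was 0.15. Of the 5 tested, 1 was called higher at each of 24, 36 and 48 h, and 0 at 8 and 12 h. The B cell sums were apart at 24 and 36 h, with 11396 to 15101 in TCDD cells and 9791 to 11259 in vehicle cells at 24 h. Of 7 B cell markers, 3 were called higher and 0 lower at 24 h, 1 and 0 at 36 h, and 2 and 0 at 48 h. At 8 h 1 was called higher and 1 lower, and at 12 h 2 were called higher and 1 lower. Cd22 read lower under TCDD at each time, 7.22 against 7.84 at 24 h. The part of these markers in the late falls of Cd37, Tspan13, Cd9 and Cd81 was not tested.

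Cd82, which binds integrins and limits cell movement, was higher under TCDD for a short time. At 12 h its bright probe set, 1416401_at, read 11.42, 11.87, 11.73 and 11.79 in TCDD cells and 10.99, 11.35, 11.40 and 11.18 in vehicle cells. The groups were apart, by 0.48 ± 0.13 (SE, n = 4; limma adjusted p = 0.0237). At 48 h the sign was turned, -0.21 ± 0.13, lower on 4 of 4 days, and was called with the day as a block alone (limma adjusted p = 0.0161). The change of its TCDD difference with time was called with the block (limma F test, adjusted p = 1.11e-05) and not without it (limma adjusted p = 0.193). With day 1 left out, that time test was called without a block too (limma adjusted p = 0.00728). Without day 2, 3 or 4 the 12 h call was lost (limma adjusted p = 0.211, 0.0766 and 0.259). It was also lost without the 4 arrays standing apart (limma adjusted p = 0.0506), as was the 12 h call of Cd151 1424093_x_at described next (limma adjusted p = 0.0787). The other probe set, 1449611_at, gave -0.55 ± 0.43 at 12 h and was called in no comparison.

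Cd151, an adhesion tetraspanin known mainly from laminin-binding integrins, has 6 probe sets, and those that were called were higher under TCDD early. At 8 h, 1437670_x_at read 8.95, 8.97, 8.62 and 8.76 in TCDD cells and 8.48, 8.39, 8.42 and 8.11 in vehicle cells. The groups were apart by 0.47 ± 0.11 (SE, n = 4; limma adjusted p = 0.00949), and by 0.42 ± 0.11 at 12 h (limma adjusted p = 0.0148). Another probe set, 1424093_x_at, was higher by 0.48 ± 0.14 at 12 h (limma adjusted p = 0.0295). At 24 h both were still higher, by 0.27 and 0.40, without a call (limma adjusted p = 0.186 and 0.0929). For 1424093_x_at the groups were apart at 24 h and 4 of 4 days were higher. That difference was called with a stricter filter and with values as deposited (limma adjusted p = 0.0479 and 0.0445). At 48 h both were slightly lower under TCDD, by -0.13 and -0.17, without a call. Leaving out 1 day ended the 3 calls at 8 and 12 h in 3 of 4 cases each, with limma adjusted p up to 0.172, 0.182 and 0.29. The probe sets 1456085_x_at, 1451232_at and 1427525_at were not called under TCDD at any time. The sixth, 1420921_at, never passed the filter: its highest group mean was 5.42 against a limit of 6.21.

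Tspan31, known too as sarcoma amplified sequence, has the highest signals of its 3 probe sets in 1416556_at, whose group means stayed within 12.02 to 12.74. At 12 h it read 12.71, 12.76, 12.45 and 12.74 in TCDD cells and 12.44, 12.13, 12.07 and 12.31 in vehicle cells. All 4 TCDD arrays lay above all 4 vehicle arrays, by 0.43 ± 0.11 (SE, n = 4; limma adjusted p = 0.0123). At 8 and 24 h it was higher by 0.31 each, called with the day as a block alone (limma adjusted p = 0.0128 and 0.00918). At 36 and 48 h it was at -0.01 and -0.12. The 12 h call was lost without day 2, 3 or 4 (limma adjusted p = 0.232, 0.0538 and 0.105). The probe sets 1430029_a_at and 1455853_x_at were not called in any comparison, and the latter passed the filter through TCDD cells at 8 h alone. Myeloid sums were also apart beside the early rises of Cd82, Cd151 and Tspan31. At 8 h they were 1965 to 2272 in TCDD cells and 899 to 1167 in vehicle cells. At 12 h they were 2128 to 2490 against 893 to 1087. Of 5 myeloid markers tested, 1 was called higher at 8 h and 2 at 12 h, with medians of -0.34 and 0.43. The stromal and endothelial sum at 12 h was 2066 to 2444 against 1523 to 1930, with 0 of 5 tested markers called. The part of these markers in these rises was not tested.

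Cd53, a leukocyte tetraspanin of broad expression, had no call under TCDD. Its bright probe set, 1448617_at, differed by -0.33 to 0.19 at the 5 times, with a standard error of 0.15, and the groups overlapped at each. It was lower in 8 of 20 same-day pairs and higher in 12. The dimmer 1459744_at gave -0.42 to 0.27 with a standard error of 0.25. At an unadjusted p under 0.05, limma gave 0 higher and 1 lower of its 10 tests.

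**Figure D3:**
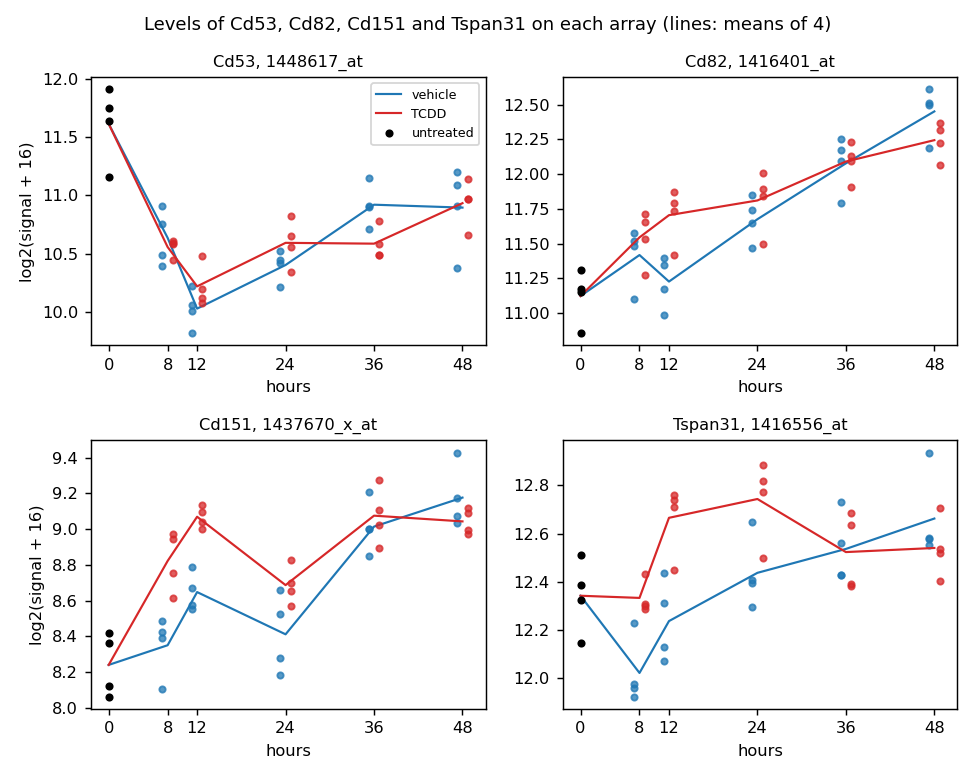
Levels, log2(signal + 16) on the y axis, of the brightest probe sets of Cd53, Cd82, Cd151 and Tspan31 on each array against hours of culture (x axis). Points are arrays, 4 per group, lines join group means, black is untreated, blue vehicle and red TCDD; Cd53 drops from 11.62 to 10.03 by 12 h in vehicle cells, and Cd82 climbs from 11.12 to 12.45 by 48 h.

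Between vehicle and untreated cells, Cd53 was lower at all 5 times and Cd37 and Cd9 at 3 each, Cd82 and Cd151 rose, and Cd81 and Tspan13 fell before they came back. In this comparison 40 of 90 tests of a probe set at a time were called. The 5 times share the same 4 untreated arrays, so they are not independent of each other. At 8 h, 0 of 18 were higher by limma (1 at an unadjusted p under 0.05) and 6 lower, against 10.9% and 9.95% of all probe sets. At 12 h, 1 was higher and 7 lower, against 10.9% and 10.5%. At 24 h, 1 was higher and 8 lower, against 9.04% and 7.71%. At 36 h, 4 were higher and 3 lower, against 12.8% and 13%. At 48 h, 8 were higher and 2 lower, against 18.5% and 19.2%. These too are counts of probe sets. By gene, those higher at the 5 times in order numbered 0, 1, 1, 2 and 4, and those lower 4, 5, 5, 3 and 2. The median of the 18 probe sets went from -0.37 at 8 h to 0.35 at 48 h, while that of all probe sets stayed between -0.02 and 0.02.

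**Figure D4:**
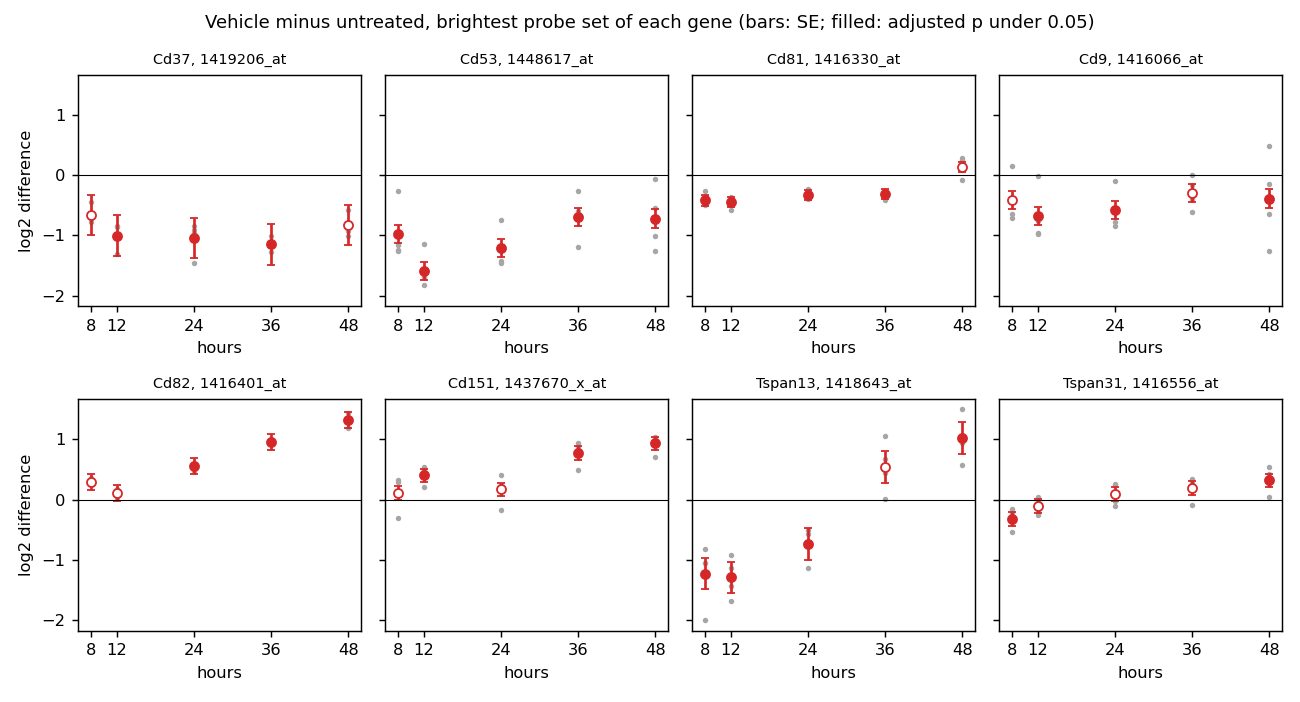
Difference between vehicle cells and untreated cells (log2, y axis) at 5 times (hours, x axis) for the brightest probe set of 8 tetraspanin genes. Large circles are fitted differences with standard errors, filled where the adjusted p was under 0.05, and grey dots are the 4 same-day differences; Cd53 is lowest at 12 h (-1.58), Cd82 is highest at 48 h (1.33) and Tspan13 passes from -1.29 at 12 h to 1.02 at 48 h.

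Cd53 at 12 h had the largest fall of these genes in vehicle cells. Its 4 untreated arrays read 11.75, 11.64, 11.16 and 11.91, and its vehicle arrays at 12 h 10.06, 9.82, 10.01 and 10.23. The groups were far apart, and the difference was -1.58 ± 0.15 (SE, n = 4; limma adjusted p = 3.26e-10). It was -0.98 at 8 h, -1.21 at 24 h, -0.69 at 36 h and -0.72 at 48 h, called at each time and lower in 20 of 20 same-day pairs. The second Cd53 probe set was also lower in 20 of 20 pairs and was called at 8, 12 and 24 h, with -1.40 ± 0.25 at 12 h. Its 24 h call was lost without day 1, 2 or 3 (limma adjusted p = 0.0696, 0.0616 and 0.174). At 48 h its difference was not called (limma adjusted p = 0.0958), but it was with the day as a block and without day 4 (limma adjusted p = 0.0462 and 0.0328). That probe set passed the filter through untreated cells and vehicle cells at 36 and 48 h alone, so the filter itself favours a fall.

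Cd37 and Cd9 were also below their starting level. Cd37 1419206_at read 9.90, 10.56, 10.52 and 10.55 in untreated cells and was lower by -1.0 at 12 h, -1.04 at 24 h and -1.15 ± 0.34 at 36 h (limma adjusted p = 0.0287, 0.0276 and 0.00973). At 48 h it was lower by -0.82, which was not called (limma adjusted p = 0.0514). That difference was called with the day as a block (limma adjusted p = 0.0268) and in several other settings, such as the arrays compared alone (limma adjusted p = 0.0153). The calls at 12, 24 and 36 h were all lost without the 4 arrays standing apart (limma adjusted p = 0.187, 0.213 and 0.11), where the differences were -0.95, -0.89 and -0.995, and without day 2 or 3. Its second probe set was lower too, in 20 of 20 pairs, and was called at 24 h (-1.29 ± 0.38, limma adjusted p = 0.0157). This call too was lost without the 4 arrays standing apart (-0.86, limma adjusted p = 0.29) and without day 2 or 4 (limma adjusted p = 0.0611 and 0.0922). Cd9 read 11.26, 11.28, 10.29 and 10.95 in untreated cells, with replicate 3, 1 of the arrays standing apart, well below the others. It was lower by -0.68 ± 0.15 at 12 h (limma adjusted p = 0.00124), -0.57 at 24 h and -0.39 at 48 h. At 8 h, Cd9 was at -0.41, which was not called (limma adjusted p = 0.0526). It was called with the day as a block (limma adjusted p = 0.0257) and in several other settings. Without the 4 arrays standing apart, Cd9 was called lower at 8 h and also at 36 h. The differences there were -0.74 and -0.615 (limma adjusted p = 4.72e-05 and 0.000444). The 24 h call was lost without day 1 or 4 (limma adjusted p = 0.113 and 0.0745). The 48 h call was lost without day 1, 2 or 4, and its value moved to -0.10 without day 2.

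Cd81 and Tspan13 fell and then came back. Cd81 was lower by -0.42, -0.44, -0.33 and -0.31 at 8, 12, 24 and 36 h, each called, and by 48 h stood at 0.14 above untreated cells without a call. The 24 h call was lost without day 2, 3 or 4 and the 36 h call without day 4 (limma adjusted p up to 0.0773 and 0.078), and both were lost without the 4 arrays standing apart (limma adjusted p = 0.0851 and 0.0808). Tspan13 went further. Its probe set 1418643_at read 9.39, 9.16, 9.06 and 8.70 in untreated cells, 8.26, 7.48, 7.62 and 7.78 in vehicle cells at 12 h, and 10.33, 10.24, 9.64 and 10.19 at 48 h. The 3 groups did not overlap, with -1.29 ± 0.26 at 12 h and 1.02 ± 0.26 at 48 h (limma adjusted p = 0.000295 and 0.00177). The second probe set gave -1.06 ± 0.15 and 0.86 ± 0.15 (limma adjusted p = 2e-06 and 2.46e-05). Without the 4 arrays standing apart, the 48 h call of 1418643_at was lost (0.78, limma adjusted p = 0.085). At 36 h that probe set stood 0.54 above untreated cells, called with the day as a block alone (limma adjusted p = 0.0114).

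Cd82 and Cd151 rose. Cd82 1416401_at was above its same-day untreated array in 20 of 20 pairs. Its untreated arrays read 10.86, 11.17, 11.31 and 11.15 and its vehicle arrays at 48 h 12.19, 12.61, 12.51 and 12.50, which is 1.33 ± 0.13 higher (SE, n = 4; limma adjusted p = 3.51e-10) and a fold change of 2.51. At 24 h it stood 0.55 and at 36 h 0.95 above untreated cells. At 8 h it stood 0.30 above them, which was not called (limma adjusted p = 0.119). That difference was called with the day as a block and without day 1 (limma adjusted p = 0.000169 and 0.00982). Cd151 1437670_x_at rose from 8.36, 8.06, 8.12 and 8.42 to 9.07, 9.03, 9.17 and 9.43 at 48 h, a difference of 0.94 ± 0.11 (limma adjusted p = 1.1e-08). The smaller 12 h rise of 1437670_x_at was lost without day 2 or 3 and without the 4 arrays standing apart (limma adjusted p up to 0.0897). Of the 5 tested Cd151 probe sets, 4 were called higher at 48 h, by 0.60 to 0.94. The call of 1456085_x_at was lost without day 1, 3 or 4 (limma adjusted p = 0.133, 0.0588 and 0.0529) and with only the arrays compared. At 24 h, 1451232_at was higher by 0.61, which was not called (limma adjusted p = 0.0536). It was called with the day as a block and without day 1 (limma adjusted p = 0.0167 and 0.0218). Tspan31 1416556_at moved least, by -0.32 ± 0.11 at 8 h and 0.32 ± 0.11 at 48 h (limma adjusted p = 0.0319 and 0.019). The early fall of Tspan31 was lost without day 2, 3 or 4 (limma adjusted p up to 0.255) and without the 4 arrays standing apart (-0.25, limma adjusted p = 0.247), and the late rise without day 1 or 2 (limma adjusted p up to 0.13). The plasma cell markers rose over the same hours, from a summed signal of 13892 to 16763 in untreated cells to 23637 to 24942 at 48 h, and their part in these rises was not tested.

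The test of whether the TCDD difference changed with time called 3 of 18 probe sets, against 3.98% of all probe sets: Cd9, Tspan13 1460239_at (limma F test, adjusted p = 0.00118) and Cd151 1437670_x_at (limma adjusted p = 0.047). With the day as a block it called 6 of 18, against 10% of all. The block added Cd82 1416401_at, Tspan13 1418643_at (limma adjusted p = 0.00106) and Tspan31 1416556_at (limma adjusted p = 0.0018). The Tspan13 call of 1460239_at was lost without day 1 or 2 (limma adjusted p = 0.0755 and 0.0669), and that of Cd151 without each day in turn (limma adjusted p from 0.155 to 0.527). Cd37 1419206_at, with the largest single difference, was not called by this test (limma adjusted p = 0.185, and 0.06 with the block).

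**Figure D5:**
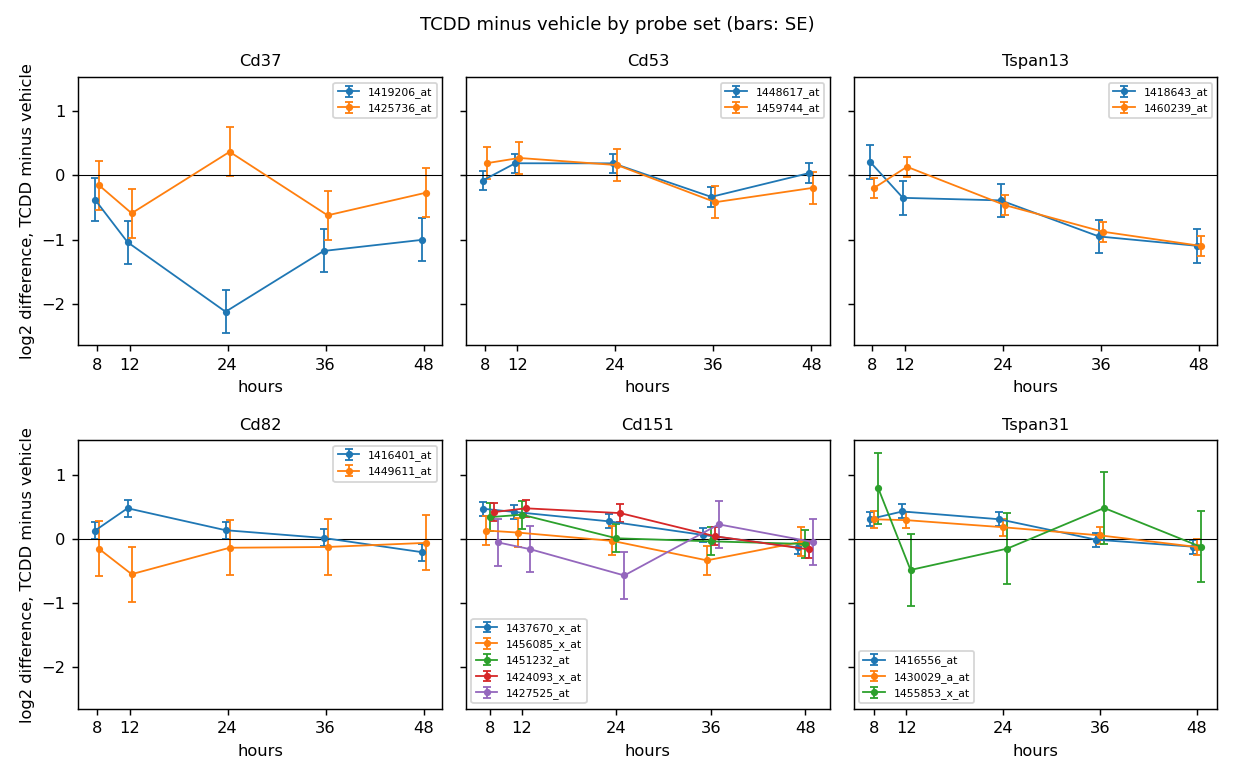
Difference between TCDD and vehicle cells (log2, y axis) at 5 times (hours, x axis) for each tested probe set of the 6 genes with more than 1. Points are fitted differences with standard errors and colours are probe sets; the lines of Tspan13 lie together, while those of Cd37 part at 24 h (-2.13 and 0.37).

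Probe sets of 1 gene disagreed for several members. As a description, the 2 probe sets of Tspan13 followed each other over the 11 group means with r = 0.96, and those of Cd53 with r = 0.91. Those of Cd37 gave r = 0.68 and those of Cd82 r = -0.30. The bright Tspan31 pair gave r = 0.86, and the dim 1455853_x_at r = -0.13 and 0.15 with the others. Among the 6 Cd151 probe sets, r ran from -0.06 to 0.93, with 1437670_x_at and 1424093_x_at the closest pair. The probe sets of a gene share the same arrays, days and group means. Both Tspan13 probe sets are also annotated to the same sequence record, as are Cd151 1451232_at and 1424093_x_at. The suffix x marks probe sets in which some probes may match other transcripts, which applies to 3 of the Cd151 sets and 1 of Tspan31.

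In order of level, the neighbours were seldom distinct. For Cd37 1419206_at the order ran from untreated cells (10.38) through vehicle cells at 8 h (9.72), 48 h (9.56), 12 h (9.38), 24 h (9.34) and 36 h (9.24) to TCDD cells at 48 h (8.55), 12 h (8.34), 36 h (8.06) and 24 h (7.21). TCDD cells at 8 h (9.34) fell among the vehicle groups. Of its 10 neighbouring pairs, 0 were free of overlap between arrays. For Tspan13 1460239_at, 2 of 10 neighbouring pairs were free of overlap, and for Cd53 1448617_at, Cd81 and Cd9 1 each. The top of the Cd53 order, untreated cells at 11.62, was apart from the next group, TCDD cells at 48 h with 10.93.

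The members shared no single pattern. Over the 11 group means, Cd82 and Cd151 were the most alike pair of bright probe sets (r = 0.81), with Cd81 and Tspan13 as close (r = 0.81). Cd37 ran with Cd9 (r = 0.68) and against Tspan31 (r = -0.65). Among all genes, the pattern most like Tspan13 was that of Nucb2, which codes for a calcium-binding protein (r = 0.99 over 11 group means and 0.94 over 44 arrays). For the other members the likeness to the nearest gene fell more from the group means to the 44 arrays. The most like Cd82 was Cask (r = 0.98 over group means and 0.53 over arrays), and the most like Cd53 was Tcf4, a B cell E protein (r = 0.96 and 0.53). Csnk2a1, a subunit of casein kinase 2, was nearest to Cd37 (r = 0.96 and 0.64), but its group means spanned only 0.40 against 3.17 for Cd37. In the same order of values, Ago2 was nearest to Cd81 (r = 0.95 and 0.67) and Hsdl2 to Tspan31 (r = 0.97 and 0.81). Dnajc14 was nearest to Cd151 (r = 0.95 and 0.62) and Mkrn1 to Cd9 (r = 0.90 and 0.68).

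Of 22 other tetraspanins named, 15 were tested under TCDD, and 2 of 75 tests were called, both higher at 48 h: Tspan3 by 0.54 and Rom1 by 0.72. That is close to the share among all probe sets, 1.74% to 3.79% higher and 0.786% to 2.88% lower at a time, and at an unadjusted p under 0.05 limma gave 5 higher and 10 lower. In vehicle cells against untreated cells, 16 of 75 tests of these genes were lower and 5 higher, where 7.71% to 19.2% of all probe sets were lower and 9.04% to 18.5% higher at a time. The same shares of all probe sets apply to the lists that follow. Tspan14 was lower by -1.41 at 8 h, Tspan3 by -1.06 at 48 h and Tspan33, a marker of activated B cells, by -0.90 at 24 h, while Upk1a was higher by 1.46 at 48 h.

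Partners of tetraspanins at the lymphocyte surface were tested for 20 of 26 genes. Under TCDD, 16 of 100 tests were higher and 6 lower, against at most 3.79% and 2.88% of all probe sets at a time. Ifitm3, an interferon-inducible membrane protein, was higher at each of the 5 times, by 0.76 to 1.26. Vcam1, an adhesion receptor, was lower by -1.17 at 12 h. Cd44 was higher by 0.51 at 24 h. Itga4, the integrin alpha 4 chain that pairs with tetraspanins on B cells, was lower by -0.64 at 36 h. In vehicle cells, Ms4a1, which codes for CD20, fell by 3.07 and Cd22 fell by 2.17 by 48 h, and Ifitm3 rose by 2.64.

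MHC class II genes, whose products sit in tetraspanin microdomains, were called 0 of 45 times under TCDD by limma (1 higher and 1 lower at an unadjusted p under 0.05), with list medians from -0.16 to 0.04. In vehicle cells against untreated cells, 38 of 45 tests of the same 9 genes were lower and 0 higher, with a median of -1.03 at 24 h. Among 14 signalling and cytoskeletal partners, 7 of 70 tests were higher and 4 lower under TCDD. Ptpn6, which codes for the phosphatase SHP-1 that CD37 is known to engage, was higher under TCDD at each time, by 1.05 to 1.67. Ezr, which codes for the membrane linker ezrin, was lower at 4 of 5 times, by -0.50 at 12 h. Of 17 genes of late endosomes and exosomes, 2 of 85 tests were higher and 2 lower under TCDD, near the share among all probe sets. The lower ones were Sdc1 and Sdc4 at 48 h, by -1.06 and -0.61.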

How the data were processed

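Total RNA from 44 CH12.LX cultures was measured on 1 Affymetrix Mouse430_2 array each. The deposited values are intensities on a linear scale, made by the authors with GCOS 1.0 per the submitters' processing notes, and each column has a mean of 500.0 after the lowest and highest 2% are left out. The values were quantile normalized and turned into log2(value + 16). The 64 control probe sets were left out, and a probe set was tested where at least 1 group mean exceeded 6.21, the median over all arrays and probe sets. In the annotation table, 34945 probe sets have 1 gene symbol, 932 several and 9160 none.

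limma 3.58.1 (R 4.3.3) was used for 1 fit of 11 group means, with empirical Bayes moderation, two-sided tests, Benjamini-Hochberg adjustment per comparison over all 25200 probe sets, and a threshold of 0.05. The script was tested on simulated data. The spread behind each p is that between cultures of a single line grown on separate days. Replicate numbers mark days, per the series' design text, so they pair the samples. Deviations from group means correlated with a median r of 0.17 for arrays of the same number in different groups and -0.06 for other numbers, and the TCDD and vehicle arrays of a day and time had r over 0.1 in 18 of 20 cases. The reported fit has no term for the day, and the blocked p is given where it changes a call. The members, the gene lists and the tests were chosen with earlier results of these data known. Every probe set with 1 symbol among the members was described. Of each list every member was counted and up to 4 called genes with the largest change were named. The brightest probe set stands for each listed gene. The 3 genes most like each member were ranked by the correlation of group means. Alternatives were a fixed or random block for the day, the arrays compared alone, other filters and pseudocounts, values as deposited, an intensity trend, other summaries of probe sets, and leaving out each day or the 4 arrays standing apart. Promoter windows and neighbours come from RefSeq tables (GRCm38.p6), which were not tied to the array by coordinates. Python 3.11.15 and matplotlib 3.10.9 made the figures.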

Additional observations from a re-analysis of the deposited data

Results flagged for a closer look

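For the brightest probe set of each gene, the highest or lowest array of a group was far from the other 3 in 9 of 88 groups, and chance alone flags about 1 in 20 groups. Cd37 was low on day 1 in untreated cells (9.90) and in vehicle cells at 12 h (8.59), and high on day 3 in TCDD cells at 36 h (8.40). Cd9 was low on day 4 in vehicle cells at 12 h (10.19), an array that also stood apart in technical measures, and low on day 3 in TCDD cells at 48 h (9.60). Tspan31 was high on day 1 in vehicle cells at 8 h (12.23) and 48 h (12.94) and in TCDD cells at 8 h (12.43), and low on day 3 in TCDD cells at 12 h (12.45).

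The difference between TCDD and vehicle cells changed with time for 3 probe sets by the limma F test. The adjusted p was 0.000754 for Cd9, whose differences ran from 0.34 at 12 h to -0.75 at 36 h. It was 0.00118 for Tspan13 1460239_at, from 0.14 at 12 h to -1.10 at 48 h, and 0.047 for Cd151 1437670_x_at, from 0.47 at 8 h to -0.13 at 48 h.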

How the results depend on the processing

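No result changed direction among those called in both settings. Of 15 TCDD calls among the members, 2 held in every setting run on their probe set, both Tspan13 1460239_at, as did 17 of 40 calls between vehicle and untreated cells and 0 of 3 time tests. The TCDD count fell to 4 when each comparison used its own arrays alone, and was 9 of 40 gene tests when the probe sets of each gene were averaged. The vehicle count was 23 and 24 in these settings. The count of time tests rose to 6 with the replicate block, 7 with a random block and 5 with a stricter filter. Leaving out 1 day, which also leaves 3 arrays a group, gave 5 to 14 TCDD calls, 28 to 39 vehicle calls and 1 to 3 time tests. The TCDD count was lowest, at 5, without day 2, against 9 without day 3 and 6 without day 4. With the day as a fixed block, which uses the pairing, 21 TCDD calls and 46 vehicle calls were made, and it ended 0 of the 58 calls and added 15. Without the 4 arrays standing apart there were 14, 31 and 3. Values as deposited ended 6 calls and added 1. The median of all probe sets moved by under 0.1 between those scalings. The dim probe sets of Cd53, Tspan31 and Cd151 lie close to the filter, which limits what they can show.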
